A study of Mus musculus with 12 samples.

Results

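Ppcdc encodes phosphopantothenoylcysteine decarboxylase, the third enzyme of coenzyme A synthesis, and its probe was well above background in wild-type mouse brain and in no Il18 knockout brain. It was described together with the other 6 genes of the pathway, Pank1, Pank2, Pank3, Pank4, Ppcs and Coasy, to ask whether they differed where the Ppcdc signal was missing. The members are every probe whose gene name in the scan files is one of these 7 symbols, which gave 8 probes out of 55681, and 7 gene names out of 36163. Ppcdc was taken up because of its low signal in knockout, so its knockout values are a description and carry no test. The other 6 genes were chosen by their place in the pathway, and their 7 probes were tested.

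RNA came from whole brain of untreated BALB/c mice, either wild type or Il18 knockout, and 6 weeks or 12 weeks old. There were 4 groups of 3 biological replicates, each read on its own Cy3-labelled Agilent array. Il18 encodes interleukin-18, a cytokine of the inflammasome pathway. How the Il18 allele was made, how it was crossed into the strain, and the sex of the animals are not given in the sources used here. Bulk brain RNA cannot tell fewer cells of a type from less RNA per cell.

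Coenzyme A carries acyl groups in the citric acid cycle, in fatty acid synthesis and breakdown and in acetylation. Cells make it from pantothenate, vitamin B5: pantothenate kinase phosphorylates the vitamin, Ppcs joins cysteine to the product, Ppcdc removes a carboxyl group, and Coasy carries out the last steps. Pantothenate kinase is the regulated step and is inhibited by coenzyme A and its thioesters, and mutations of PANK2 or COASY in people cause neurodegeneration with iron in the brain.

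The Ppcdc probe is 60 bases long and lies on chromosome 9 (mm9, chr9:57261009-57261068, minus strand), at position 2153 of the transcript as the files count it. Its GC content is 30%. It is the only Ppcdc probe on the array, so its first 30 bases are shown as the sequence on which every Ppcdc value rests. Coasy has 2 probes, which begin 2 bases apart and share 58 bases, and their first 30 bases are shown to make that overlap visible, with the bases printed for both in capitals.
Ppcdc probe: tgtgtgaactcaacatacaactttaaaatt
Coasy probe 1: gtGTTGATGGGTTTGGTGAAGTCTGGACCC
Coasy probe 2: GTTGATGGGTTTGGTGAAGTCTGGACCCag
The Coasy probes lie at chr11:100947874-100947933 and chr11:100947876-100947933 on the plus strand, and they differed by at most 0.08 on the log2 scale on any of 12 arrays. They are therefore repeat readings of 1 stretch of RNA and not independent evidence about the gene. Each remaining gene has 1 probe: Pank1 at chr19:34885801-34885860 and Ppcs at chr4:119091138-119091194 on the minus strand, and Pank2 at chr2:131099939-131099998, Pank3 at chr11:35599745-35599804 and Pank4 at chr4:154354923-154354982 on the plus strand. The Pank2 probe sits at transcript position 608, and the other members' probes sit at positions 1383 to 2440.

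Levels below are log2 signal relative to the 75th percentile of the same array, which ran from 890 to 1188 intensity units, and 65.9% to 76.2% of spots per array were well above background. Per the file headers the arrays lie on 2 slides. Slide 1 holds the wild types of both ages together with replicates 1 and 2 of the 6-week knockout, and slide 2 holds its replicate 3 and the 12-week knockouts. At 12 weeks genotype and slide coincide, and a fit with a term for slide, called the slide block below, rests on the 6-week knockouts alone. Within slide 1, all 6-week wild-type arrays lie in slide column 2 and both 6-week knockouts in column 1, so column and genotype coincide there. A fit with a term for slide column, called the slide-column block below, rests on 12-week wild type alone. In that group replicate 1 lies in column 2 and replicates 2 and 3 in column 1. At 12 weeks that block therefore amounts to leaving out wild-type replicate 1. Markers of neurons, astrocytes, oligodendrocytes, microglia, endothelium and choroid plexus (29 genes in 6 lists) were well above background on all 12 arrays. The summed linear signal of 4 endothelial markers, as multiples of the array's 75th percentile, was 11.4 to 15.6 in wild type and 15.0 to 20.3 in knockout. The sum of 4 pituitary markers was 1.19 to 1.75 on 10 arrays, and 5.15 and 74.4 in 12-week knockout replicates 1 and 3. At 12 weeks other summed levels also lay apart between wild type and knockout. They were 296 to 313 against 370 to 413 for astrocytes (2 of 5 markers called higher and 1 lower), 293 to 296 against 316 to 349 for neurons (1 of 5 higher) and 243 to 244 against 255 to 258 for oligodendrocytes (3 of 5 higher). They were 30.6 to 33.4 against 37.2 to 39.7 for microglia (3 of 5 higher) and 58.0 to 81.2 against 84.5 to 139 for blood (2 of 3 higher). In 6-week knockout replicate 3, on slide 2, the sums were 411 for astrocytes, 382 for neurons, 342 for oligodendrocytes and 37.0 for microglia. In replicates 1 and 2, on slide 1, they were 275 and 325, 304 and 303, 266 and 290, and 32.9 and 32.0. For blood replicate 3 was lower, at 53.5 against 63.6 and 74.4. The part of any of these in the results below was not tested. Nothing in the labels says that the replicates were processed separately, so p-values measure the spread between these samples.

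Il18, the targeted gene, was lower in every knockout. Its level was 1.60, 1.75 and 1.52 in 6-week wild type, 1.51, 1.63 and 1.93 in 12-week wild type, -0.28, -0.17 and -0.20 in 6-week knockout and -0.20, -0.23 and -0.32 in 12-week knockout. It fell by 1.84 ± 0.11 at 6 weeks and by 1.94 ± 0.11 at 12 weeks (log2, SE of limma), and its probe stayed well above background on all 12 arrays. Whether that probe lies inside the deleted stretch is not given in the sources used here, so the remaining signal does not check the deletion itself.

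The Ppcdc level in wild type was -3.81, -3.90 and -4.11 at 6 weeks and -3.68, -3.81 and -3.81 at 12 weeks. The probe was dim but well above background on 6 of 6 wild-type arrays, with a processed signal of 59.3 to 84.8 intensity units. In knockout it was well above background on 0 of 6 arrays. Its background-subtracted signal there was -1.60 to 0.505 units, around zero, against 53.7 to 82.5 in wild type. The scanner software had put a surrogate value in place of the signal on all 6, so the knockout values of 3.48 to 4.96 units do not order the arrays or the ages. Against the lowest signal marked well above background on the same arrays, Ppcdc was at least 4.23-fold lower in knockout at 6 weeks and at least 4.38-fold lower at 12 weeks. As a description of the values Ppcdc was chosen by, the wild-type and knockout arrays lay apart at both ages, also within slide 1 at 6 weeks. Between 6 and 12 weeks in wild type the mean went from -3.94 ± 0.15 to -3.76 ± 0.08 (SD, n = 3), a change of 0.17 ± 0.13 that did not pass the test (limma, adjusted p = 0.588).

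**Figure D1:**
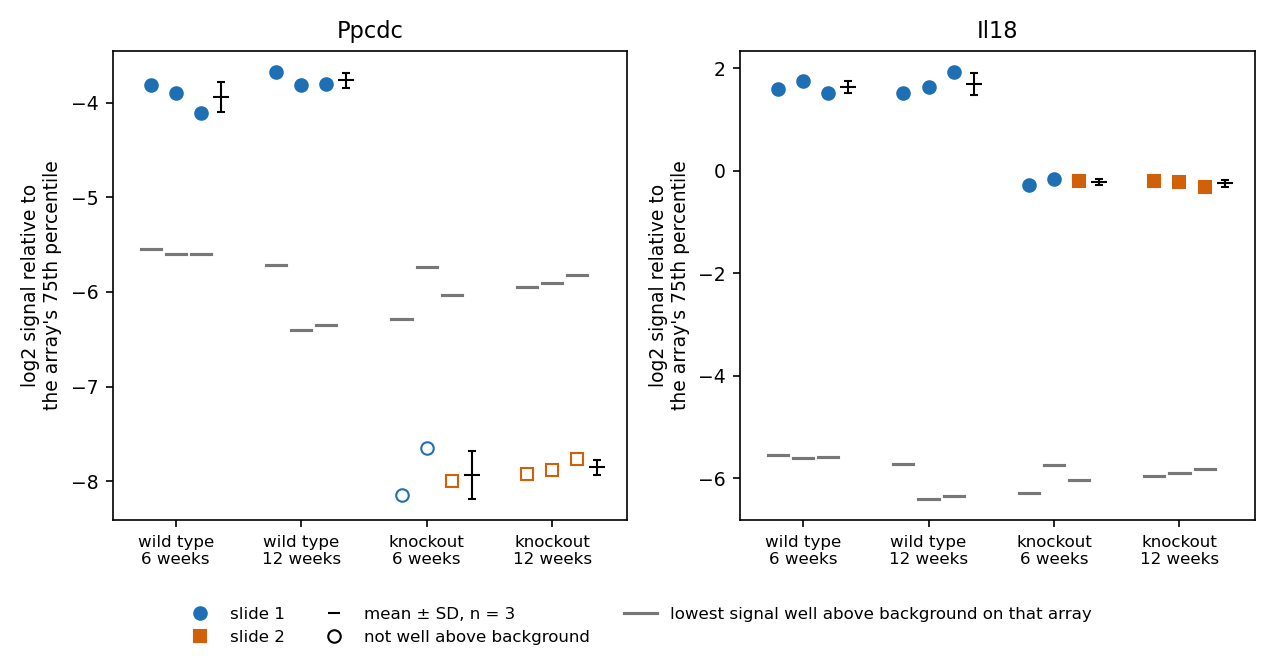
Level of the Ppcdc and Il18 probes on each of 12 arrays (y axis, log2 signal relative to the array's 75th percentile) by genotype and age (x axis). Blue circles are slide 1 and orange squares slide 2, open symbols are not well above background, grey dashes are the lowest signal marked well above background on that array, and black bars are the mean ± SD of 3 arrays. Ppcdc lies above the grey dashes on every wild-type array and below them on every knockout array, whichever slide, and Il18 is lower in knockout but stays well above them.

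At 6 weeks no probe of the other 6 genes passed the test between knockout and wild type (0 of 7 by limma at adjusted p under 0.05, 2 of 7 at unadjusted p under 0.05). Over all 37202 probes tested, 232 were called, or 0.624%, and 6624 had an unadjusted p under 0.05. Every one of the 84 readings of these probes was well above background, with processed signals of 336 to 11066 intensity units, so faint signal did not limit them.

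Of the pantothenate kinases, Pank3 and Pank1 had the smallest p-values. Pank3 encodes a cytosolic kinase, and its level at 6 weeks was -0.49, -0.52 and -0.50 in wild type and -0.80, -0.69 and -0.94 in knockout. The groups did not overlap, and the change was -0.31 ± 0.08 (limma, adjusted p = 0.119). How many of all probes lay apart in this way was not counted, here or for the values below. On slide 1 alone it was -0.24 ± 0.08 (adjusted p = 0.279), and the arrays still lay apart.

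Pank1, which encodes the kinase best known from liver, had levels of -1.40, -1.13 and -1.61 in 6-week wild type and -1.07, -1.06 and -1.16 in knockout. Its change was 0.28 ± 0.11 (adjusted p = 0.219). Wild-type replicate 2 lay within the knockout range, and the wild-type arrays were more widely spread (SD 0.24) than those of any other group (SD 0.05 to 0.08). Pank2, which encodes the kinase found in mitochondria in people, changed by 0.0068 ± 0.10 with a 95% interval of -0.21 to 0.23, and by -0.072 on slide 1 alone. Pank4, whose product joins an inactive kinase domain to a phosphatase, changed by 0.19 ± 0.12. In Pank4 knockout replicate 3, on slide 2, was at 2.81, while replicates 1 and 2, on slide 1, were at 2.34 and 2.36, within the wild-type range of 2.25 to 2.43. On slide 1 alone the Pank4 change was 0.038, with a 95% interval of -0.15 to 0.23.

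Ppcs makes the substrate of Ppcdc, and Coasy uses its product. Ppcs was at 0.11, 0.057 and -0.025 in 6-week wild type and at 0.12, 0.038 and 0.088 in knockout, a change of 0.035 ± 0.07 with a 95% interval of -0.12 to 0.19. The first Coasy probe was at 2.86, 2.96 and 2.87 in wild type and at 3.01, 2.98 and 3.32 in knockout. All 3 knockouts lay above all 3 wild types, by 0.21 ± 0.10 in the mean (adjusted p = 0.289), and on slide 1 alone by 0.10 with a 95% interval of -0.07 to 0.27. The second Coasy probe gave 0.22 ± 0.11 (adjusted p = 0.316).

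**Figure D2:**
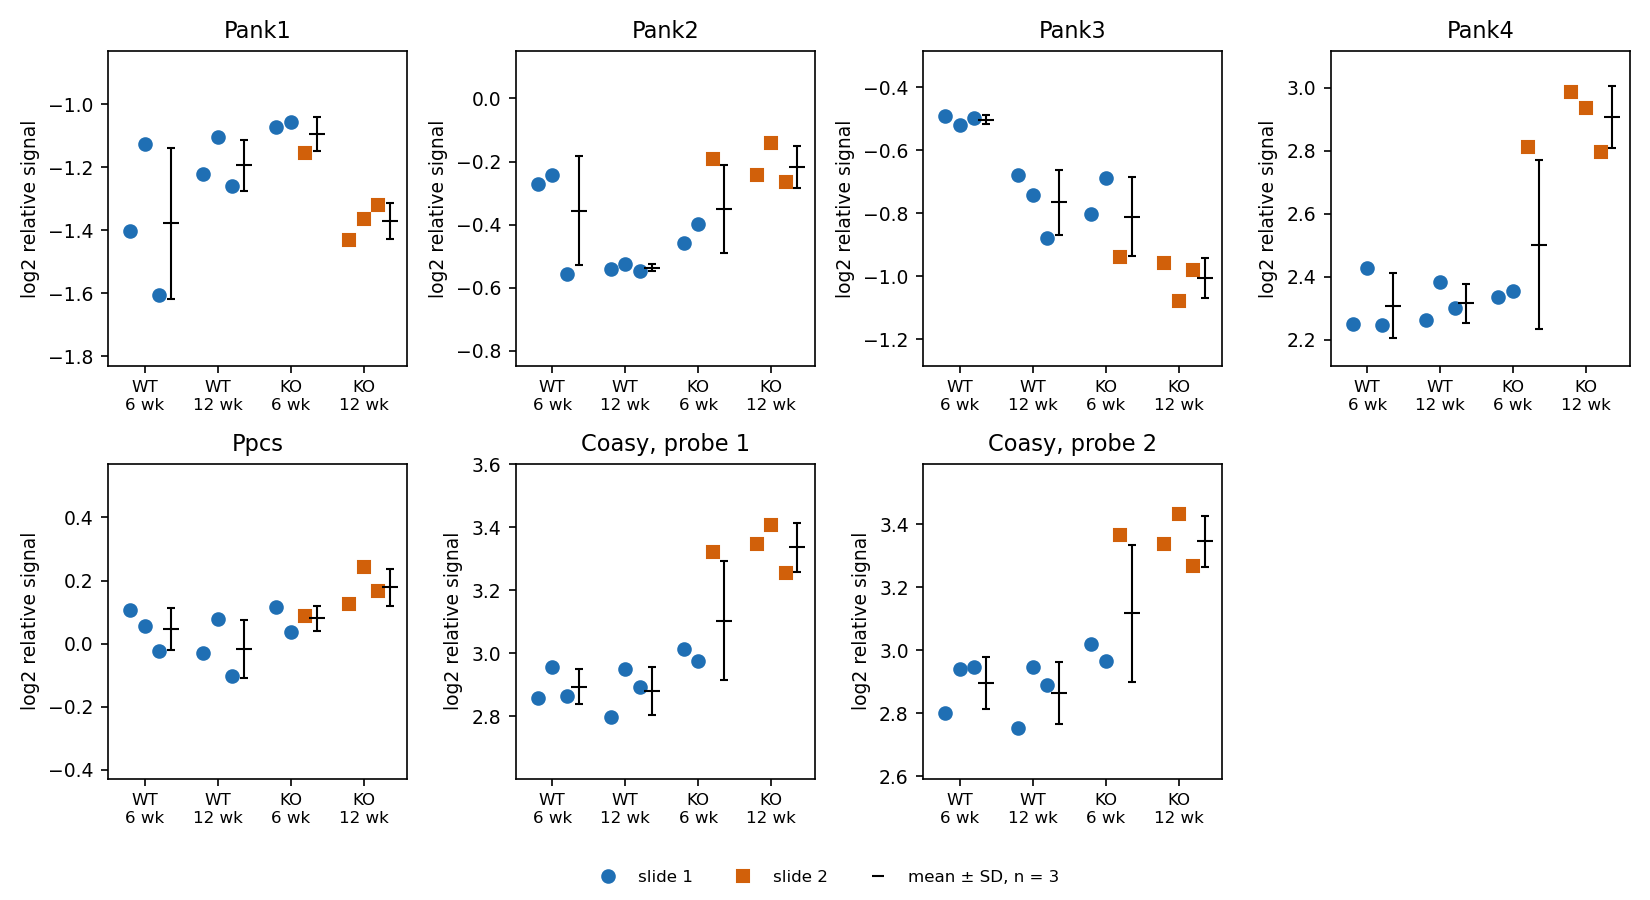
Level of the 7 probes of the other coenzyme A synthesis genes on each array (y axis, log2 signal relative to the array's 75th percentile, every panel spanning 1 log2 unit) by genotype (WT wild type, KO knockout) and age (x axis). Blue circles are slide 1, orange squares slide 2, and black bars the mean ± SD of 3 arrays. For Pank4 and both Coasy probes every slide 2 array lies above every slide 1 array, and for Pank3 every slide 2 array lies below.

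At 12 weeks 5 of the 7 probes passed the test, 4 higher in knockout (Pank4, Pank2 and both of Coasy) and 1 lower (Pank3). In this comparison 11700 of 37202 probes were called, or 31.4%, with 16.2% higher and 15.2% lower. Under the slide block 0 of the 7 were called (none at unadjusted p under 0.05 either), and 33 of all probes, or 0.0887%. Of all 37202 probes, 2846 then had an unadjusted p under 0.05. Genotype and slide cannot be told apart at this age other than through 6-week knockout replicate 3 against replicates 1 and 2, so the members' values are given with that block beside them.

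Pank4 showed the largest change of the 7 probes. It was at 2.26, 2.38 and 2.30 in 12-week wild type and at 2.99, 2.94 and 2.80 in knockout, with no overlap. The change was 0.59 ± 0.12 (adjusted p = 0.00957), and under the slide block 0.13 with a 95% interval of -0.18 to 0.43. Coasy was at 2.80, 2.95 and 2.89 in wild type and at 3.35, 3.41 and 3.25 in knockout by its first probe, again apart. It rose by 0.46 ± 0.10 (adjusted p = 0.0099), and its second probe rose by 0.48 ± 0.11 (adjusted p = 0.0117). Under the slide block these were 0.13 with a 95% interval of -0.14 to 0.39, and 0.11 with an interval of -0.19 to 0.41.

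Pank2 was at -0.54, -0.52 and -0.55 in 12-week wild type and at -0.24, -0.14 and -0.27 in knockout. It rose by 0.32 ± 0.10 (adjusted p = 0.0333), against 0.084 under the slide block. The 12-week knockouts overlapped with 6-week wild type, at -0.27, -0.24 and -0.56. Pank3 was at -0.68, -0.74 and -0.88 in 12-week wild type and at -0.96, -1.08 and -0.98 in knockout, and it fell by 0.24 ± 0.08 (adjusted p = 0.0464), against -0.048 under the slide block. Both calls also missed the threshold under the slide-column block (adjusted p = 0.0763 for Pank2 and 0.136 for Pank3). At this age that block amounts to leaving out wild-type replicate 1, so it is no separate check from the next. Leaving out any 1 of the 6 arrays compared ended the Pank2 call (adjusted p = 0.0587 to 0.0959), and leaving out any but wild-type replicate 3 ended the Pank3 call (0.0797 to 0.136). The calls of Pank4 and Coasy passed without any 1 of them, also without knockout replicate 3, the array with the high pituitary sum (adjusted p = 0.0233 for Pank4).

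The remaining 2 genes did not pass at 12 weeks. Their arrays lay apart, but genotype and slide coincide at this age, and the share of all probes lying apart was not counted. Ppcs was at -0.030, 0.079 and -0.10 in wild type and at 0.13, 0.24 and 0.17 in knockout, a change of 0.20 ± 0.07 (adjusted p = 0.057), and its value under the slide block was 0.19. It passed under 4 of 14 alternatives, which were median scaling (0.32, adjusted p = 0.0192), normexp correction (0.0431), quantile scaling (0.0488) and trend and robust variance (0.0485), and its adjusted p over the alternatives reached 0.746. Pank1 was at -1.22, -1.10 and -1.26 in wild type and at -1.43, -1.36 and -1.32 in knockout, a change of -0.18 ± 0.11 (adjusted p = 0.233), and of -0.084 under the slide block.

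**Figure D3:**
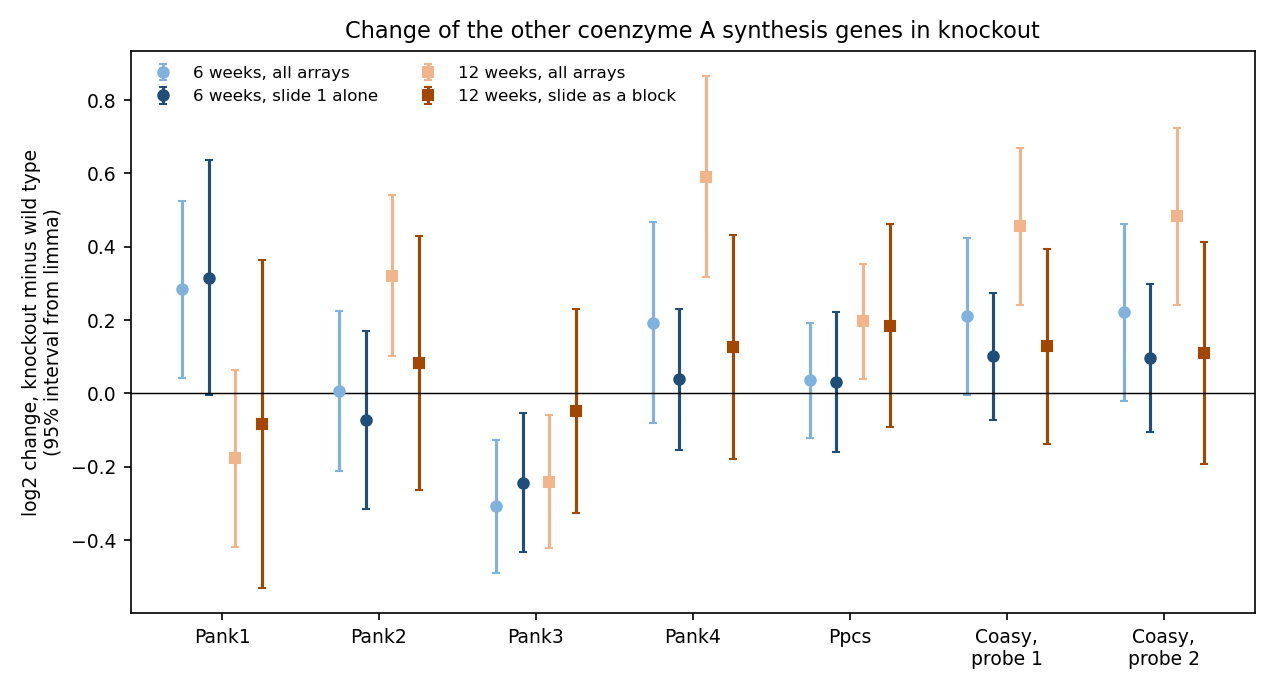
Log2 change of each of the 7 probes in knockout against wild type (y axis, 95% intervals from limma) for each gene (x axis), at 6 weeks over all arrays and over slide 1 alone (circles), and at 12 weeks over all arrays and under the slide block (squares). At 12 weeks Pank4 moves from 0.59 to 0.13 and the first Coasy probe from 0.46 to 0.13 under the slide block, and all 7 intervals with the block include 0.

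Within the 6-week knockouts, arrays of 1 genotype and age lie on both slides, but slide 2 holds 1 of them, so slide and animal cannot be told apart there. Replicate 3, on slide 2, exceeded the mean of replicates 1 and 2, on slide 1, by 0.46 for Pank4, 0.33 and 0.37 for the Coasy probes and 0.24 for Pank2, and it was lower by -0.19 for Pank3 and -0.093 for Pank1, with 0.011 for Ppcs. The order of these values from Pank4 down to Pank2 is that of the 12-week changes, and they rest on 1 array. Over all 37202 probes tested, the same difference had a Pearson correlation of 0.63 with the 12-week change. Pank4 was at 2.80 to 2.99 on slide 2 and at 2.25 to 2.43 on slide 1. The first Coasy probe was at 3.25 to 3.41 on slide 2 and at 2.80 to 3.01 on slide 1, and Pank3 at -1.08 to -0.94 against -0.88 to -0.49. Pank2 overlapped slightly between slides, at -0.27 to -0.14 against -0.56 to -0.24, and Ppcs and Pank1 overlapped as well. How many of all probes lay apart between slides was not counted. A difference between replicate 3 and the other 2 as large as that of Pank4 or larger in size was found for 17.6% of all probes tested, and for 25.9% to 31.3% at the size of the Coasy probes.

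The GC content of the probe moved with these differences. Over 37202 probes its Pearson correlation was 0.24 with the difference of replicate 3 from replicates 1 and 2 within 6-week knockout, 0.26 with the 12-week genotype change and -0.078 with the 6-week change on slide 1 alone. These are descriptions over probes that share the same arrays. The member probes with a GC content of 43.3% to 46.7% (Coasy, Pank2 and Pank4) were higher in replicate 3 and in the 12-week change. Pank3 and Pank1, with 38.3% and 35%, were lower in both. The levels of Pank1 and Pank2 overlapped between slides. Ppcs, with 36.7%, was higher at 12 weeks and in 6-week knockout replicate 3 it lay 0.011 above replicates 1 and 2. The median 12-week change was 0.044 for 10114 probes with a GC content from 45% to under 50%, and -0.12 for 11629 probes from 35% to under 40%. It was -0.026 for 7016 probes from 40% to under 45%, where both Coasy probes lie, which rose. The part of GC content in the members' changes was not tested.

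**Figure D4:**
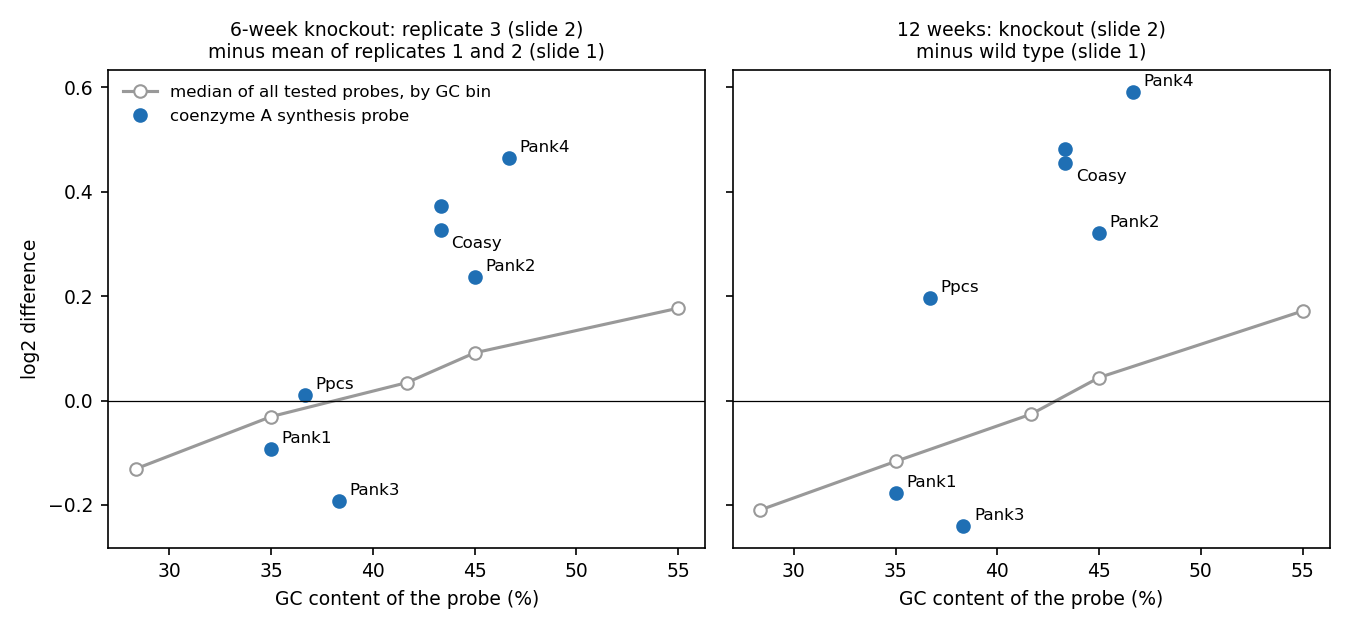
GC content of each probe (x axis, percent) against its log2 difference (y axis) between replicate 3 (slide 2) and replicates 1 and 2 (slide 1) of the 6-week knockouts (left) and between knockout and wild type at 12 weeks (right). Blue points are the 7 probes of the other coenzyme A synthesis genes, with 2 for Coasy, and the grey line joins the medians of all tested probes in 5 GC bins. Both panels show the grey line rising with GC content, and Pank4, Coasy and Pank2 above it and Pank3 below it in each.

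Age was compared within each genotype. In wild type, where all arrays are on slide 1, 0 of the 7 probes passed (limma, 1 of 7 at unadjusted p under 0.05). Of all 37202 probes 163 passed, or 0.438%, and 5269 had an unadjusted p under 0.05. Pank3 had the smallest p, with a change of -0.26 ± 0.08 from 6 to 12 weeks (adjusted p = 0.186), and its 6-week and 12-week wild-type arrays lay apart. Pank2 changed by -0.18 ± 0.10, Pank1 by 0.18 ± 0.11 and Ppcs by -0.063 ± 0.07, and Pank4 (0.0069) and Coasy (-0.014 and -0.033) were close to 0, with 95% intervals of -0.27 to 0.28 for Pank4 and -0.23 to 0.20 for the first Coasy probe.

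In knockout 0 of the 7 passed with age (limma, 4 of 7 at unadjusted p under 0.05). Of all 37202 probes 407 passed, or 1.09%, and 9572 had an unadjusted p under 0.05. Pank4 changed by 0.41 ± 0.12 (adjusted p = 0.0933) and Pank1 by -0.28 ± 0.11 (adjusted p = 0.152). This comparison turned on 6-week replicate 3, the one 6-week knockout on slide 2. Without it 4 of the 7 were called, Pank4 at 0.56, both Coasy probes at 0.34 and 0.35 and Pank3 at -0.26, together with 9626 of all probes, or 25.9%. Under the slide block, which compares the 12-week knockouts with replicate 3 alone, Pank4 was at 0.095 and the Coasy probes at 0.014 and -0.019.

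Whether the genotype difference itself differed between ages was tested as an interaction, and 0 of the 7 passed (limma, 3 of 7 at unadjusted p under 0.05). Of all 37202 probes 38 passed, or 0.102%, and 7044 had an unadjusted p under 0.05. Pank1 came nearest: it was higher in knockout at 6 weeks and lower at 12 weeks, a difference of -0.46 ± 0.15 (adjusted p = 0.184) and of -0.40 under the slide block. The order of its group means from low to high was 6-week wild type (-1.38), 12-week knockout (-1.37), 12-week wild type (-1.19) and 6-week knockout (-1.09), and no difference between any of these groups in the comparisons made passed. For Pank4 the difference was 0.40 ± 0.17 (adjusted p = 0.257) and for Pank2 0.31 ± 0.14 (adjusted p = 0.261). Without 6-week knockout replicate 3 the interaction was called for Pank4 and both Coasy probes and for 5841 of all probes, or 15.7%.

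The genes that supply, carry and use coenzyme A were followed in 5 lists with 66 genes outside the members, 64 of which were tested, each by its brightest probe. At 6 weeks 1 of 64 rose in knockout and none fell (1.56%, against 0.624% of all probes), with a median change of 0.072 against 0.030 over all probes. At 12 weeks 13 rose and 5 fell (28.1%, against 31.4% of all probes), with a median of 0.072 against -0.0018 over all probes. A closer background is the fit with 1 probe per gene, the brightest, for 26499 genes. In it 245 were called at 6 weeks, with a median of 0.036. At 12 weeks 4891 were higher and 3846 lower, with a median of 0.017. Under the slide block none of the 64 were called at either age, while 0.339% of all probes were at 6 weeks.

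Of the genes that move and break down coenzyme A, 2 of 12 rose at 12 weeks and none fell, against 16.2% higher and 15.2% lower over all probes: Dcakd, named for a domain like the dephospho-CoA kinase of Coasy (0.70), and Slc25a42, a mitochondrial carrier of coenzyme A (0.55). Of the genes that take up the phosphopantetheine arm of coenzyme A or work with proteins that carry it, 3 of 9 rose and none fell, Ndufab1, the mitochondrial acyl carrier protein (0.56), Aldh1l1, a folate enzyme of astrocytes, whose summed markers were also higher (0.56), and Mcat (0.30). Of the acyl-CoA thioesterases, which release free coenzyme A, 3 of 9 rose and none fell, Acot7, the main one of brain (0.65), Acot8 (0.37) and Acot1 (0.35). All of these changes were log2 values on all 12 arrays, and under the slide block they were 0.46, 0.35, 0.33, 0.12, 0.21, 0.062, 0.11 and 0.31 in the order given, with none called. Both lists of 9 are to be read against the same 16.2% and 15.2% of all probes.

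The lists of users went both ways, and their background is again 16.2% higher and 15.2% lower. Of the acyl-CoA synthetases 2 of 17 rose at 12 weeks (Acsf3, 0.56, and Acsbg1, 0.46) and 2 fell (Acss3, -1.05, and Acsf2, -0.43). With the slide term Acsf3 was at 0.19, Acsbg1 at 0.19, Acss3 at -0.39 and Acsf2 at -0.089, and none was called. Of the coenzyme A-dependent dehydrogenases and acetyl-CoA enzymes 3 of 17 rose (Ogdh, 0.60, Bckdha, 0.52, and citrate synthase, Cs, 0.38) and 3 fell, the largest being Dbt (-0.84), a subunit of the branched-chain complex that also holds Bckdha. With the slide term Ogdh was at 0.078, Bckdha at 0.23, Cs at -0.073 and Dbt at -0.18, with none called. With age in knockout Hmgcs1, an enzyme of cholesterol synthesis, was the only one of the 64 called (1.56%, against 1.09% of all probes). It changed by -0.47 ± 0.09 (adjusted p = 0.0494), and by -0.50 under the slide block (adjusted p = 0.416).

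Probes near Ppcdc on chromosome 9 were compared to see whether its neighbours differed as well. Within 0.5 Mb of the Ppcdc probe lie 64 other probes, of which 41, with 35 gene names, were tested. At 6 weeks 3 of 41 were called (7.32%, against 0.624% of all probes). Rpp25, which encodes a subunit of RNase P and lies 92.0 kb from the Ppcdc probe, was at 0.38 to 0.57 in wild type and at -0.72 to -0.47 in knockout. It fell by 1.08 ± 0.10 at 6 weeks (adjusted p = 0.00128) and again by 1.08 at 12 weeks (adjusted p = 0.00102). On slide 1 alone it was -1.14 (adjusted p = 0.0242), and under the slide-column block it missed the threshold at 6 weeks (-0.90, adjusted p = 0.116). Neil1, a DNA repair glycosylase on the other side, rose by 0.64 ± 0.09 at 6 weeks (adjusted p = 0.0171). It was 0.69 on slide 1 alone (adjusted p = 0.0264). The slide block (adjusted p = 0.0310) gives the same estimate at 6 weeks by its design, so it is no separate check. Under the slide-column block Neil1 was at 0.69 (adjusted p = 0.262). At 12 weeks, without a block, it was 0.25 and not called (adjusted p = 0.0624). A neighbouring transcript named in the files by an Ensembl number alone rose by 0.62 ± 0.11 (adjusted p = 0.0373), and by 0.66 on slide 1 alone (adjusted p = 0.0840, not called).

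The nearest tested neighbour, Scamp5, a membrane protein of synaptic vesicles 28.7 kb away, was well measured in knockout, at 2.73 to 2.95 at 6 weeks against 2.62 to 2.86 in wild type (0.12 ± 0.11, adjusted p = 0.571). It is named for its position. At 12 weeks 15 of 41 were called (36.6%, against 31.4% of all probes), 10 higher and 5 lower. The higher ones were Imp3, Snupn, Ptpn9, Man2c1, 1700017B05Rik, Scamp5, Cox5a, Ulk3, Clk3 and the same Ensembl transcript, by 0.23 to 0.56. Rpp25, Trcg1 (-0.97), 1 of 2 tested probes of Lman1l (-0.50, with 0.13 and adjusted p = 0.587 for the other) and 2 probes without a gene symbol were lower. Under the slide block none of the 41 were called at 12 weeks. Rpp25 was then at -1.25 (adjusted p = 0.0605), Trcg1 at -1.13, Snupn at 0.31 and Ptpn9 at 0.28, close to or beyond their values without the block, while Ulk3 went from 0.36 to -0.026.

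**Figure D5:**
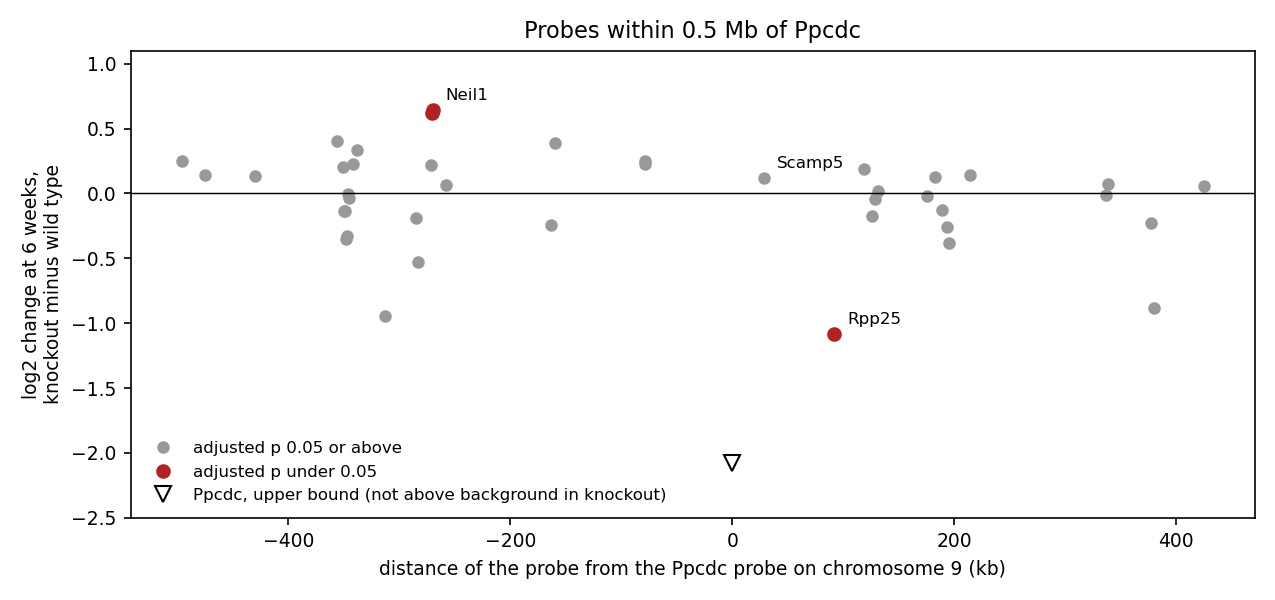
Log2 change at 6 weeks in knockout against wild type (y axis) of 41 tested probes within 0.5 Mb of the Ppcdc probe, by distance from it along chromosome 9 (x axis, kb). Red points passed the test and grey points did not. The open triangle is a bound for Ppcdc, which was not well above background in knockout. It sets the knockout level at the lowest signal marked well above background on each array. Rpp25 lies near -1.08, Neil1 and its neighbour between 0.62 and 0.64, and Scamp5, the nearest probe, near 0.12.

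The probes whose level followed that of Ppcdc most closely over the 12 arrays were Il18 (Pearson r = 0.99), a probe in a non-coding region of chromosome 5, 1 probe of Shank2, a synaptic scaffold protein, Mpeg1, a pore-forming protein of macrophages, and Tmem25, a membrane protein of neurons, all at 0.99. Since Ppcdc forms a high and a low cluster of arrays by genotype, these values say little beyond the split, and within the 6 wild-type arrays they were 0.11, -0.38, -0.18, -0.21 and 0.21. Il18 and Tmem25 are, like Ppcdc, on chromosome 9, 6.87 and 12.7 Mb from its probe. The chromosome 5 and Shank2 probes were, like Ppcdc, well above background on every wild-type array and on no knockout array. The other members' correlations with Ppcdc over the 12 arrays ran from -0.81 and -0.80 for Coasy to 0.70 for Pank3. They include the knockout arrays, where the Ppcdc values are surrogates, so they too say little beyond the split by genotype. Ppcdc itself did not split by slide. The levels of Coasy, Pank4 and Pank3 lay apart between slides, and those of Ppcs, Pank1 and Pank2 overlapped, with the share of all probes lying apart not counted. The part of slide in these correlations was not tested.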

How the data were processed

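The authors deposited 1 scan file per array and a value table. Per the submitters' processing notes the scans were read with Agilent Feature Extraction 10.7.3.1. The deposited signal columns are intensity values in arbitrary units, per the file headers. Other deposited columns, per the file headers, hold 0 or 1 and mark spots that are well above background, saturated, outliers or given a surrogate value. The value table differed from the processed signal by at most 0.498%. Probe positions are those of the files, on mm9, and all 7 member symbols were found in the RefSeq gene table (GRCm38.p6), which was used for names alone.

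Outlier spots (107 to 220 per array) and controls were left out. No spot was saturated. Log2 signals were set relative to the log2 75th percentile of their array, and spots of a probe were averaged. A probe was tested if some group had it well above background on each of its 3 arrays (37202 in all, 55 of which lacked a value on some array, which the fit left out there). Testing used limma 3.58.1 in R 4.3.3, with lmFit and eBayes, 1 mean per group over 12 arrays and 8 residual degrees of freedom. Tests were two-sided with Benjamini-Hochberg adjustment over all probes, and a probe was called at adjusted p under 0.05. A value after ± is limma's standard error, or an SD where named so. A bound for a probe not above background used, per array, the lowest signal marked well above background.

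Alternatives were slide (fixed or random), slide column or replicate number as a block, slide 1 alone, only the groups compared, and each array left out. Others were normexp with an offset of 50, quantile or median scaling, the value table as deposited, dim probes kept, probes above background on all 12 arrays, 1 probe per gene, trend and robust variance, and a minimum change of 1.5-fold. The fit was tested on simulated data.

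Named genes are Il18, every member probe, up to 4 called genes per list and comparison, called probes within 0.5 Mb of Ppcdc and the 5 probes most correlated with it. The values of 1 listed gene are not reported here. Members, lists and rules were chosen with earlier results of these data known. Same-numbered arrays deviated together with a correlation of -0.19 to 0.10 over 18 pairs, with 1 pair over 0.1, so the numbers were not taken to pair samples. The number of arrays limits the precision.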

Additional observations from a re-analysis of the deposited data

How the results depend on the processing

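The fitted change of Ppcdc in knockout was negative under all alternatives run. That is no test, since Ppcdc was chosen for its low signal in knockout and its values there are surrogates. With normexp correction, which lifts dim signals, the fitted changes were -0.99 at 6 weeks and -1.02 at 12 weeks. Of the other members, 0 of 7 probes were called at 6 weeks and with age in wild type under every alternative, leaving out each array included (0 to 0). At 12 weeks the count of 5 became 0 with slide as a block, fixed or random, 3 with slide column, with the replicate block and with no filter, 1 with a minimum of 1.5-fold (Pank4), and 3 to 4 without one array. It was 6 with trend and robust variance, where Ppcs was added. With normexp, quantile and median scaling it stayed 5, all higher, since Ppcs passed and Pank3 did not (adjusted p = 0.0784 to 0.272). With age in knockout it was 1 with trend and robust variance and 0 to 4 without one array, and for the interaction 0 to 3. The array that gave 4 and 3 was 6-week knockout replicate 3.

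Counts over all probes moved more. At 6 weeks (232) they were 126 with slide fixed, 135 with slide column, 89 with the replicate block, 53 on slide 1, 65 with only the groups compared, 579 with normexp, 450 with quantile, 353 with median scaling, 71 with no filter, 410 with trend and robust variance and 78 to 221 without one array. At 12 weeks (11700) they were 33 and 70 with slide fixed and random, 7438 with slide column, 4044 with a minimum fold and 6454 to 8099 without one array. With age in wild type (163) they were, in the same order of settings, 352, 278 and 271, then 40 with the replicate block, 70 on slide 1, 4 with only the groups compared, 36 with no filter, 292 with trend and robust variance and 25 to 79. With age in knockout (407) they were 27, 9 and 66, then 18 with the replicate block, 0 with only the groups compared, 783 with normexp, 18 with no filter, 885 with probes above background on all arrays, 2138 with trend and robust variance, 202 with a minimum fold and 1 to 9626. For the interaction (38) they were 15, 16 and 155, then 14 with the replicate block, 18 with median scaling, 17 with no filter, 70 with probes above background on all arrays, 157 with trend and robust variance and 7 to 5841. Higher and lower calls at 6 weeks were 129 and 103, against 282 and 71 with median and 325 and 125 with quantile scaling. At 12 weeks they were 6032 and 5668, against 9274 and 3122 with median scaling and 7410 and 4216 with normexp. Median scaling moved the median of all probes to 0.13 at 6 weeks and 0.12 at 12 weeks.

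Of the changes of Il18 and the members, those below turned sign, with ranges without one array in parentheses. Outside the members, Cs (0.38 to -0.073) and Ulk3 (0.36 to -0.026) turned sign at 12 weeks with slide fixed. Pank2 at 6 weeks became -0.072 with slide fixed and on slide 1 alone and -0.025 with slide random (-0.093 to 0.064), and Ppcs ranged from -4.6e-05 to 0.065. With age in wild type, Coasy probe 1 became 0.028 with normexp, 0.023 with quantile and 0.0019 with median scaling (-0.048 to 0.028), and probe 2 became 0.0035 with quantile scaling (-0.080 to 0.022). Pank4 became -0.046 with slide column and -0.014 with normexp (-0.027 to 0.066), Ppcdc -0.0010 with normexp, and Il18 -0.12 with slide column (-0.056 to 0.15). With age in knockout and slide fixed, Pank2 became -0.025 and Coasy probe 2 -0.019. Il18 became 0.0073 with median scaling (-0.063 to 0.0037), and Ppcdc, not measured there, -0.028 with normexp and -0.038 with quantile scaling (-0.029 to 0.22). In the interaction Pank3 became -0.020 and Il18 0.085 with slide column (Il18 -0.18 to 0.025, Ppcdc -0.20 to 0.043). The causes were not tested.

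The numbers of the labels were not taken to pair the samples. With the replicate block, Pank2 (adjusted p = 0.0569) and Pank3 (0.0621) lost their 12-week calls, and 1 array correlated best with its own number. Ppcdc rests on 1 probe close to background, which allows a bound in knockout, and the 12-week comparison has no array of both genotypes on 1 slide.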
